A study of Bos taurus with 16 samples.

Results

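The miRNAs of immune activation miR-155-5p, miR-146a-5p and miR-342-3p were followed in the corpus luteum of pregnant cattle. Tissue was taken on day 14, 17, 20 or 23 counted from breeding. The miRNAs were picked by name from a table of NanoString normalized counts and make up 3 of its 204 probes. Each day had 4 corpora lutea, all from cattle mated at estrus, then inseminated artificially, and found to be pregnant; no group without pregnancy was analysed here. Each of 2 NanoString runs, in which colour-coded probes are counted on RNA without amplification, held 2 corpora lutea of every day, so that run could be held while days were compared. RNA sequencing that the study also describes was not analysed here.

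The corpus luteum is the ovarian gland that secretes progesterone, and in cattle it is kept through early pregnancy or regresses in its absence. It holds macrophages and lymphocytes beside luteal, endothelial and stromal cells, and immune cells take part in its regression. In mice and humans, miR-155 is cut from the BIC transcript, which activated macrophages and lymphocytes induce. In the same species miR-146a is induced by NF-kB and restrains the pathway by targeting TRAF6 and IRAK1, signalling proteins downstream of Toll-like receptors, while miR-342 is made from an intron of the EVL gene and is found in lymphoid cells.

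The probes carry human miRNA names. RefSeq genes of the cattle assembly ARS-UCD2.0 include one that bears the name of each of the 3. MIR155 lies between the coding genes MRPL39 and NCAM2, MIR146A between PTTG1 and ATP10B, and MIR342 inside EVL. Of the 204 probes, 38 matched no bovine miRNA gene by name or by number, and their median in each sample was used as a measured background. That median was 57.5 ± 15.9 normalized counts in run 2 and 160 ± 44.0 in run 1 (SD, n = 8 each), with ranges of 40.4 to 88.8 and 124 to 258. Sample totals averaged 448095 in run 2 and 259036 in run 1 and ran from 175197 to 536516 over all samples. The median is that of probes with names not found among these cattle genes, and some of them may still bind bovine RNA, which was not tested.

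Measured against that background median, miR-155-5p alone among the 3 stood above it in every sample, though single probes with no bovine gene read higher. miR-155-5p exceeded the background median in 16 of 16 samples, miR-146a-5p in 3 of 16, all 3 in run 2, and miR-342-3p in 1 of 16, day 17 replicate 4 of run 2. By mean level over all samples, miR-155-5p ranked 68 of 204 (506 normalized counts), miR-342-3p 176 (50.7) and miR-146a-5p 187 (40.4). Probes can differ in how well they capture their target, so these ranks order signals and not molecules. The 2 dim miRNAs thus read at or below that median in most samples, and how much of their signal was background was not tested.

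**Figure D1:**
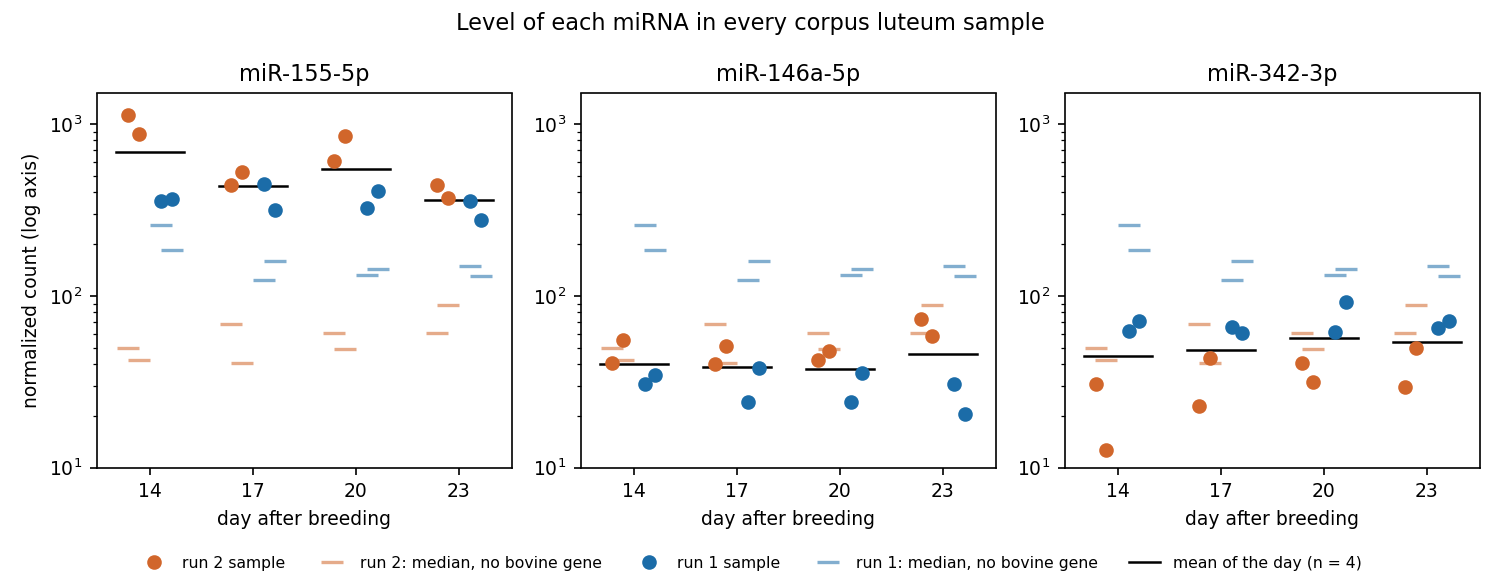
Normalized counts (log axis) of the 3 miRNAs in each of 16 corpora lutea against day after breeding; dots are samples, dashes the same sample's median of 38 probes with no bovine gene, black lines the day means (n = 4). miR-155-5p lies above the dashes in all 16 samples, while miR-146a-5p and miR-342-3p lie below them in 13 and 15 of 16.

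miR-155-5p had its highest values on day 14 in run 2. On day 14 it read 1131 and 877 normalized counts in run 2 and 353 and 365 in run 1. On day 17 it read 443 and 527 in run 2 and 447 and 317 in run 1. Run 2 lay far above run 1 on day 14, and on day 17 the runs overlapped. On day 20 the readings were 606 and 850 in run 2 and 325 and 409 in run 1. On day 23 they were 438 and 370 in run 2 and 355 and 274 in run 1. Every day's samples overlapped with those of every other day on this scale, where days 23 and 14 did not overlap for 0.98% of probes with day 23 higher and 0.98% with it lower, and other pairs for 0% to 1.47% in a direction. Day means were 682 ± 387, 433 ± 86.7, 548 ± 234 and 359 ± 67.4 normalized counts for days 14, 17, 20 and 23 (SD, n = 4 each). In order of level the days were 14, 20, 17 and 23, and neighbours in that order differed by less than the larger of their SDs.

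With run held, the fitted log2 difference of miR-155-5p for day 23 against day 14 was -0.75 (SE 0.27, 95% interval -1.32 to -0.19), a 1.69-fold lower value on day 23. It was not called over all probes (limma adjusted p = 0.124, rank 17 of 204 by p). None of the 3 miRNAs was called in this comparison, in which 1 of all 204 probes was (0.49%). An unadjusted p under 0.05 was held by 1 of the 3 miRNAs and by 21.1% of all probes (7.84% on the lower side), and the median probe did not move (log2 0.00). The other pairs were not called either. Day 17 against day 14 gave -0.49 (SE 0.27, adjusted p = 0.963), and day 20 against day 14 gave -0.23 (SE 0.27, adjusted p = 0.830). Day 20 against day 17 gave 0.26 (adjusted p = 0.972), day 23 against day 17 gave -0.27 (adjusted p = 0.731), and day 23 against day 20 gave -0.53 (SE 0.27, adjusted p = 0.811). Comparisons that share a day share its 4 samples.

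Over all 4 days, miR-155-5p had a limma adjusted p of 0.484, where 0 of 204 probes were called (0%) and 8.33% had an unadjusted p under 0.05. Its linear slope was -0.067 log2 units per day (SE 0.029, 95% interval -0.13 to -0.0068, limma adjusted p = 0.177, unadjusted p under 0.05), in a test that called 0.49% of probes and put 23.5% under an unadjusted p of 0.05. An exact permutation test that moved days only within runs gave a two-sided p of 0.0320 for that slope (adjusted p = 0.176) and 0.0422 for the 4 days (adjusted p = 0.495). By that test 0 of 204 probes were called, with 43 slopes and 18 day effects under an unadjusted p of 0.05. The spread of miR-155-5p among samples, 0.43 log2 units within runs (SD), was close to the median probe's 0.44.

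The difference was larger in run 2 than in run 1. In run 2 alone, day 23 averaged 404 normalized counts against 1004 on day 14 (log2 difference -1.30), and in run 1 alone 315 against 359 (-0.20), with 2 samples per day in each. The 2 runs' differences were apart by -1.10 (SE 0.47, adjusted p = 0.218 by limma). For this difference between runs 0 of 204 probes were called (0%), and 19.1% had an unadjusted p under 0.05. The slope differed between runs by -0.090 per day (adjusted p = 0.371), where 0% were called and 17.2% had an unadjusted p under 0.05. Without day 14 replicate 3, the highest sample, the day 23 difference was -0.56 and lost its unadjusted p under 0.05. That was kept when any of the other 15 samples was left out, but leaving out a day 17 or day 20 sample cannot move this difference. The background median was 258 and 184 on day 14 and 150 and 130 on day 23 in run 1. In run 2 it was 49.9 and 42.2, then 60.4 and 88.8. Over that median, miR-155-5p was higher on day 23 in run 1 (1.16 log2 units, against 0.72 on day 14) and lower in run 2 (2.46 against 4.44).

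**Figure D2:**
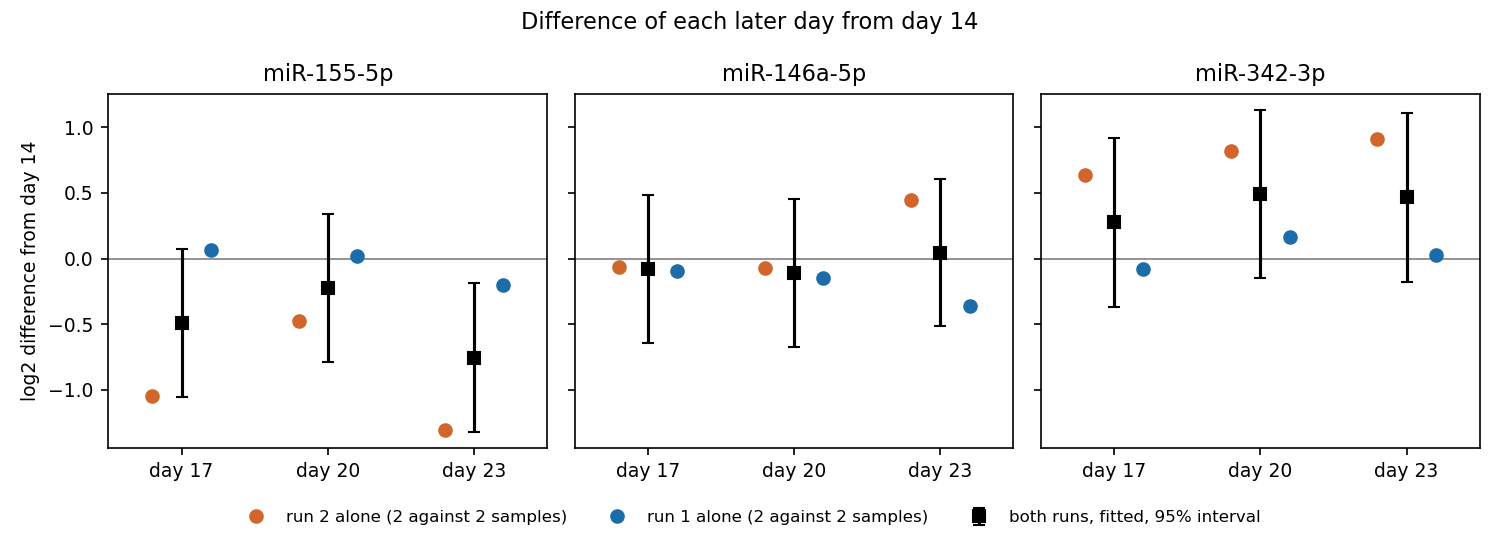
Log2 difference of days 17, 20 and 23 from day 14 for each miRNA; black squares are the fit over both runs with its 95% interval, coloured dots each run alone (2 against 2 samples). For miR-155-5p on day 23 the interval lies below 0, with run 2 alone at -1.30 and run 1 alone at -0.20; every interval of the other 2 miRNAs includes 0.

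Read as a share of each sample's total signal, a scale added after the data were seen, miR-155-5p was lower on day 23 than on day 14 in each run. On day 14 its share was 0.280% and 0.167% in run 2 and 0.202% and 0.171% in run 1, and on day 17 it was 0.108% and 0.123% in run 2 and 0.166% and 0.127% in run 1. On day 20 it was 0.162% and 0.170% in run 2 and 0.112% and 0.141% in run 1, and on day 23 it was 0.108% and 0.0690% in run 2 and 0.140% and 0.0828% in run 1. All day 23 samples and all day 17 samples lay below all day 14 samples, the nearest pair (day 17 replicate 1 and day 14 replicate 4) by little, while day 20 overlapped with day 14. Day means were 0.205% ± 0.0523, 0.131% ± 0.0246, 0.146% ± 0.0261 and 0.0998% ± 0.0312 for days 14, 17, 20 and 23 (SD, n = 4 each). Such a separation was not rare on this scale for day 23, where 12.7% of probes lay wholly below day 14 and 0.98% wholly above, and it held for 1.96% of probes on day 17. Run 1 totals were higher on day 23 (253542 and 331164) than on day 14 (175197 and 213338), while run 1 counts of miR-155-5p averaged 315 and 359. Run 2 totals were 407448 and 536516 on day 23 and 403912 and 523985 on day 14. The part of the totals in the share result was not tested.

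On the share scale the slope of miR-155-5p was -0.10 log2 units per day (SE 0.028, 95% interval -0.16 to -0.041) and passed the threshold (limma adjusted p = 0.0336). It was 1 of 19 probes called on that scale (9.31%), 18 of them downward (8.82%). Day 23 against day 14 gave -1.06 (SE 0.26, adjusted p = 0.0520), with -1.33 in run 2 alone and -0.79 in run 1 alone. The medians of all probes on this scale were also below 0, at -0.032 per day and -0.30 for day 23 against day 14. The slope was -0.12 in run 2 alone (adjusted p = 0.309) and -0.085 in run 1 alone (adjusted p = 0.0753), and the runs differed in it by -0.030 (adjusted p = 0.848 by limma). Run 1 alone called 45 of 204 probes for day 23 against day 14 on this scale, 43 of them lower, and 20 slopes, all 20 downward. In run 2 alone 0 were called in either. With each of the 16 samples left out in turn, 11 fits kept the call of the slope and 5 lost it (adjusted p 0.0250 to 0.103), those without day 14 replicates 1 or 3, day 17 replicate 1 or day 23 replicates 2 or 4. The day 23 difference, not called with all samples, was called in 6 of those 16 fits (-1.25 to -0.88, adjusted p 0.0235 to 0.178 by limma), those without day 14 replicate 4, day 17 replicates 3 or 4, day 20 replicate 2 or day 23 replicates 1 or 3. Leaving out a day 17 or day 20 sample cannot move this difference from -1.06, so only its p-values changed in those fits. A share depends on what else is in the total. The let-7a-5p and let-7b-5p probes, miRNAs of differentiated tissue, together held 40.9% ± 3.83 of the total on day 23 and 35.9% ± 3.05 on day 14 (SD, n = 4 each), and their part in the result was not tested.

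**Figure D3:**
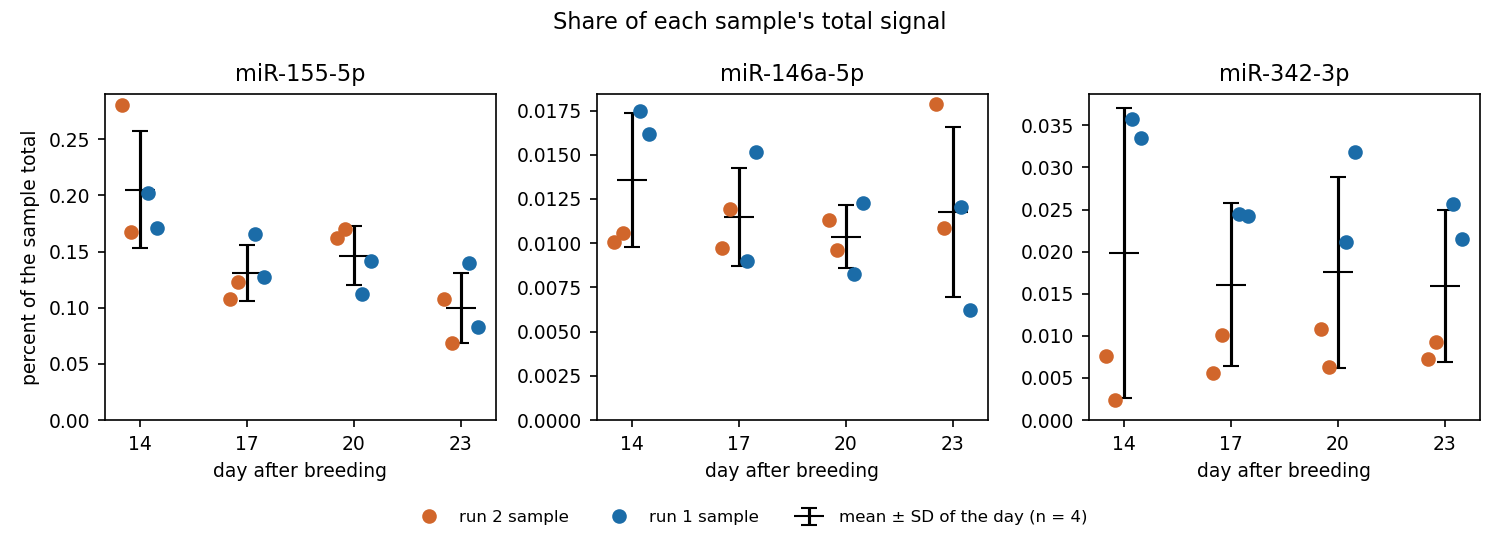
Share of each sample's total signal (percent, axes from 0) for the 3 miRNAs against day after breeding; dots are samples by run and black marks the day mean ± SD (n = 4). All 4 day 23 shares of miR-155-5p (0.0690% to 0.140%) lie below all 4 day 14 shares (0.167% to 0.280%), and miR-342-3p separates by run on every day.

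With both runs fitted together, leukocyte miRNAs had values in the same direction as miR-155-5p. Of 4 listed markers of white blood cells 3 were measured, and all 3 had lower values on day 23 than on day 14, as had 102 of all 204 probes. miR-223-3p, a miRNA of neutrophils and monocytes, differed by -1.37 (SE 0.56, adjusted p = 0.165 by limma), miR-142-3p, found across blood cell lineages, by -0.64 (adjusted p = 0.382) and miR-150-5p, of mature lymphocytes, by -0.18 (adjusted p = 0.892). None of the 3 was called, and their median was -0.64 beside 0.00 over all probes. Their summed level was 1006 ± 346 normalized counts on day 23 (675 to 1462) and 1787 ± 1435 on day 14 (540 to 3091; SD, n = 4 each). It was 1517 on day 20 (915 to 2359) and 1153 on day 17 (498 to 1621). The sum does not hold run, and miR-150-5p, at a mean of 916 over all samples, outweighs miR-142-3p (354) and miR-223-3p (96.2) in it. Like that of miR-155-5p, their day 23 differences were lower in run 2 than in run 1, by -2.80 to -1.29. For this difference between runs 0 were called by limma, and 2 of the 3 had an unadjusted p under 0.05, beside 19.1% of all probes. Most probes went the same way, 126 of all 204 (median -0.32) and 111 of the 152 with a bovine gene of the same name (median -0.51). Because the fit weighs the runs equally, run differences of this size mean that miR-142-3p and miR-150-5p were not lower on day 23 in run 1 alone. There they did not share the direction of miR-155-5p. The part of the leukocyte markers in the miR-155-5p result was not tested, and in whole tissue fewer cells of a type and less RNA per cell cannot be told apart. Erythrocytes were represented by 1 of 4 markers, miR-451a, with -1.04 (SE 0.45, adjusted p = 0.176 by limma), and its part in the result was not tested either. The endothelial miR-126-3p had -0.46 (1 of 2 markers measured) and the epithelial miR-141-3p had 0.29 (1 of 6 measured). The 4 smooth muscle and stromal markers had a median of 0.19 and were mixed in direction, from -0.50 for miR-143-3p to 0.50 for miR-145-5p.

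miR-146a-5p, the feedback miRNA of NF-kB signalling, had no called difference between days. Day 14 gave 40.6 and 55.3 normalized counts in run 2 and 30.6 and 34.5 in run 1, and day 17 gave 40.1 and 51.2 in run 2 and 24.3 and 37.9 in run 1. Day 20 gave 42.3 and 47.8 in run 2 and 24.0 and 35.6 in run 1, and day 23 gave 72.9 and 58.2 in run 2 and 30.6 and 20.6 in run 1. The highest and the lowest of its 16 samples both belonged to day 23. Day means were 40.3 ± 10.8, 38.4 ± 11.1, 37.4 ± 10.3 and 45.6 ± 24.1 for days 14, 17, 20 and 23 (SD, n = 4 each), and neighbours in this order of level differed by less than their SD. With run held, day 23 against day 14 was 0.05 (SE 0.27, 95% interval -0.52 to 0.61, limma adjusted p = 0.953), and the slope was 0.0035 per day (SE 0.027, adjusted p = 0.989). Its 6 pairs of days ran from -0.11 to 0.16, with adjusted p-values of 0.824 to 0.972 by limma, and the exact permutation p-values were 0.889 for the 4 days and 0.879 for the slope. Its spread within runs, 0.30 log2 units, ranked 184 of 204 probes, with 13 of 16 readings below the background median.

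miR-342-3p, encoded inside EVL, was also not called between any days. Day 14 gave 30.8 and 12.8 normalized counts in run 2 and 62.6 and 71.4 in run 1, and day 17 gave 22.8 and 43.2 in run 2 and 65.9 and 60.5 in run 1. Day 20 gave 40.5 and 31.7 in run 2 and 61.3 and 92.2 in run 1, and day 23 gave 29.5 and 49.4 in run 2 and 65.0 and 71.4 in run 1. Run 2 was below run 1 on each day, and day 14 replicate 4, at 12.8, equalled the lowest reading of any probe in its sample. Day means were 44.4 ± 27.4, 48.1 ± 19.4, 56.4 ± 26.9 and 53.8 ± 18.7 for days 14, 17, 20 and 23 (SD, n = 4 each), all within an SD of one another. With run held, day 23 against day 14 was 0.47 (SE 0.31, 95% interval -0.18 to 1.11, limma adjusted p = 0.413), day 20 against day 14 was 0.49 (SE 0.31, adjusted p = 0.697) and the slope was 0.054 per day (SE 0.031, adjusted p = 0.308). In run 2 alone day 23 against day 14 was 0.91, in run 1 alone it was 0.03, and without day 14 replicate 4 the fitted value was 0.14, with 0.17 for day 20 against day 14 and a slope of 0.023 per day. The exact permutation p-values were 0.415 for the 4 days and 0.0968 for the slope.

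The day-to-day intervals set what these samples could show. For miR-146a-5p and miR-342-3p, differences between days 23 and 14 of up to 0.61 and 1.11 log2 units upward, and of 0.52 and 0.18 downward, lie inside the 95% intervals. Their readings lay below the background median in 13 and 15 of 16 samples, so these intervals bound the readings and not the amount of miRNA. The labels name the corpora lutea as separate samples, and the p-values measure the spread between them.

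On the deposited scale the 3 miRNAs differed between runs in direction. miR-155-5p averaged 655 ± 269 normalized counts in run 2 and 356 ± 53.9 in run 1 (SD, n = 8 each), and with day held the log2 difference was 0.79 (SE 0.19, limma adjusted p = 0.0011). miR-146a-5p averaged 51.1 ± 11.1 in run 2 (40.1 to 72.9) and 29.8 ± 6.22 in run 1 (20.6 to 37.9), with a difference of 0.76 (SE 0.19, adjusted p = 0.0014), and the runs did not overlap. miR-342-3p went the other way, with 32.6 ± 11.7 in run 2 (12.8 to 49.4) and 68.8 ± 10.3 in run 1 (60.5 to 92.2), a difference of -1.14 (SE 0.22, adjusted p = 1.8e-04), again with no overlap. All 3 were called, as were 83.3% of all probes, 66.2% higher and 17.2% lower. Runs without overlap were found for 13.2% of probes with all of run 2 higher and 9.8% with all of run 2 lower.

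Against this shift of the whole table, miR-155-5p and miR-146a-5p had run differences close to the median bovine probe, as deposited and as a share of the total, and miR-342-3p did not. The median run difference was 0.79 over the 152 probes with a bovine gene of the same name, 0.86 over the 14 that shared only the number, and -0.86 over the 38 with none. As a share of the total, miR-155-5p differed between runs by -0.01, miR-146a-5p by -0.02 and miR-342-3p by -1.92 (limma adjusted p = 1.01e-05), beside class medians of -0.01 for probes with a bovine gene of the same name and -1.65 for those with none. After quantile normalization miR-146a-5p still differed by 0.75 (limma adjusted p = 0.0050) and miR-155-5p by 0.21, beside a median of 0.18 over all probes. Only 2 of the 152 same-name probes had a lower run difference than miR-342-3p, against 15 of the 38 with no bovine gene. All 8 samples of run 2 were below all 8 of run 1 for 2 of the 152 and 17 of the 38, and miR-342-3p is 1 of those 2. After background subtraction, which put 15 of its 16 values at the floor, its run difference was 0.12. What set its signal apart was not tested.

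**Figure D4:**
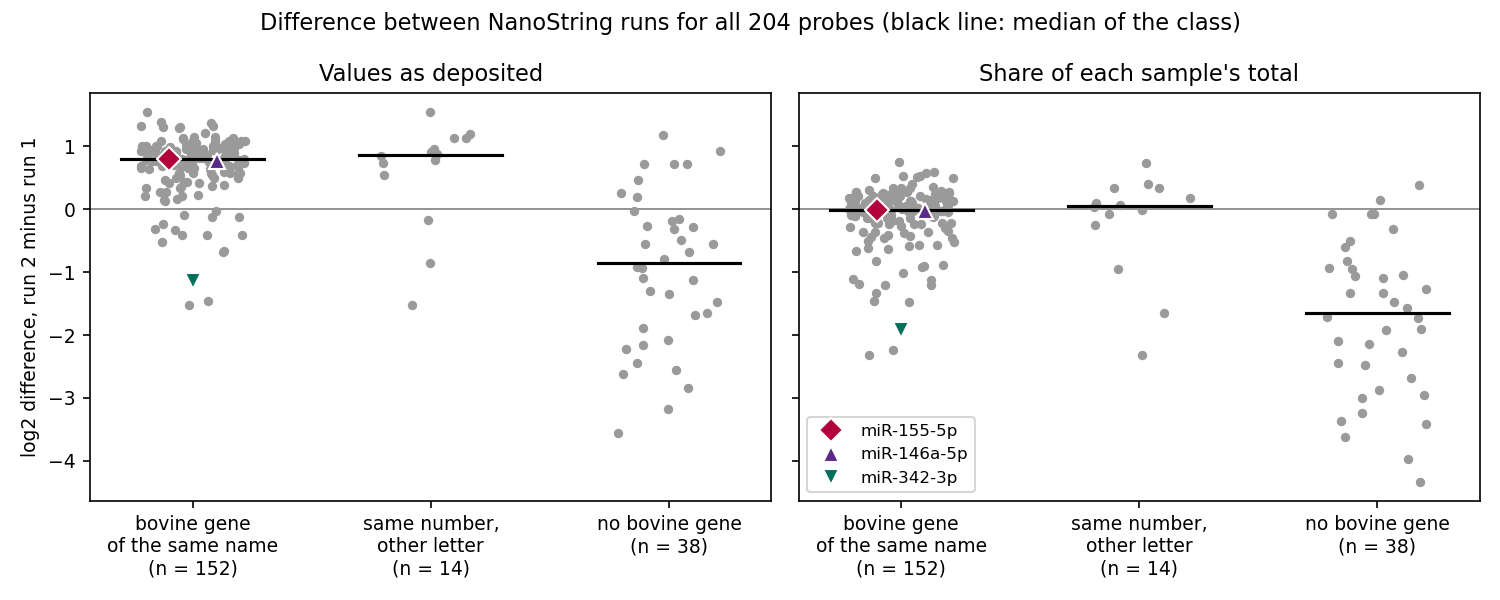
Log2 difference, run 2 minus run 1 with day held, for 204 probes by match to a miRNA gene in the cattle annotation. Deposited values are on the left and shares of the sample total on the right. Grey dots are probes, black lines class medians. miR-155-5p and miR-146a-5p sit at the median of the same-name probes, while miR-342-3p (-1.14 and -1.92) sits among the probes with no bovine gene.

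No pair of the 3 miRNAs passed a test of correlation across corpora lutea. After each run was centred, miR-155-5p and miR-146a-5p had a Pearson r of -0.19 over 16 samples (permutation p = 0.496, adjusted over the 3 pairs 0.744; Spearman rho -0.09, p = 0.762, adjusted 0.762). Within runs this r was -0.42 in run 2 and 0.29 in run 1 (n = 8 each), and without the 2 samples farthest from the median it was 0.05. miR-155-5p and miR-342-3p had r = -0.33 (permutation p = 0.383, adjusted 0.744; rho -0.16, p = 0.599, adjusted 0.762), with -0.41 in run 2, 0.33 in run 1 and -0.24 without the 2 farthest samples. miR-146a-5p and miR-342-3p had r = 0.04 (permutation p = 0.894, adjusted 0.894; rho 0.11, p = 0.695, adjusted 0.762), with -0.01 in run 2, 0.20 in run 1 and 0.09 without the 2 farthest.

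By the same centred Pearson r, the probes most like miR-155-5p were miR-21-5p, which is raised in many activated and injured tissues (r = 0.75), miR-130a-3p (0.68) and miR-708-5p (0.68). Within runs these values were 0.84, 0.74 and 0.67 in run 2 and 0.32, 0.38 and 0.72 in run 1. Among all probes ranked by likeness to miR-155-5p, the leukocyte miR-142-3p was at place 11 (r = 0.61), miR-223-3p at 12 (0.60) and miR-150-5p at 31 (0.49). The endothelial miR-126-3p was at place 16 (0.55) and the erythrocyte miR-451a at 50 (0.37). Each sample's background median, centred within runs as well, had r = -0.46 with miR-155-5p. For miR-146a-5p the nearest were miR-216a-5p (0.57), miR-548ah-5p (0.54) and let-7f-5p (0.50), and for miR-342-3p they were miR-888-5p (0.54), miR-219b-3p (0.52) and miR-1297 (0.51). Within runs the 3 values for miR-342-3p were 0.76, 0.67 and 0.68 in run 2 and -0.12, -0.0075 and 0.064 in run 1. The cattle gene annotation used here has no gene of the name or number of miR-548ah-5p, miR-888-5p or miR-1297. With the leukocyte miR-150-5p, miR-146a-5p had r = -0.69 and miR-342-3p -0.25, and with miR-223-3p they had -0.03 and -0.65. These values share the samples, runs and totals and are given as a description.

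Other miRNAs known from NF-kB signalling or from macrophage and lymphocyte activation were mixed in direction. Of 23 listed, 15 were measured, and none was called for day 23 against day 14. Values were higher on day 23 for 9 and lower for 6, beside 102 higher and 102 lower of all 204 probes. An unadjusted p under 0.05 was held by 3 of the 15 and by 21.1% of all probes. The median was 0.22 beside 0.00 over all probes. The 4 most abundant were miR-125b-5p, which targets TNF transcripts in mouse macrophages, at 0.82 (SE 0.29, adjusted p = 0.124 by limma), miR-181a-5p, a regulator of T cell receptor sensitivity in mice, at 1.26 (SE 0.33, adjusted p = 0.0810), let-7i-5p at -0.23 and miR-23a-3p at 0.32. The day 23 difference was lower in run 2 than in run 1 for 14 of the 15, with a median of -0.76. It was so for most probes, 126 of all 204 with a median of -0.32. Of the 15, 0 were called by limma for this difference between runs. An unadjusted p under 0.05 was held by 4 of the 15 and by 19.1% of all probes. Between runs all 15 were called and higher in run 2 on the deposited scale, with a median of 0.90, as were miR-155-5p and miR-146a-5p and unlike miR-342-3p. Of all 204 probes 66.2% were called and higher in run 2. So were 120 of the 152 probes with a bovine gene of the same name, whose median was 0.79.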

How the data were processed

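Per the labels, total RNA with miRNA was extracted from each corpus luteum and counted on NanoString. The authors deposited 1 table of normalized signal per probe (204 probes, 16 columns, each matched to a sample by name, 0 columns unused). Its software, panel, background correction and normalization were not given in the sources used here. Values ran from 12.0 to 132328 with none at 0, and counts were not recovered, so no count model or counting interval is given.

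Here values became log2(normalized count + 1), which understates changes of low probes. All 204 probes passed a minimum of 20 in 4 samples. limma 3.58.1 in R 4.3.3 (lmFit, eBayes with trend) was fitted to 16 samples with day and run, p-values were adjusted by Benjamini-Hochberg over all probes, and an adjusted p under 0.05 was called. The fit was tested on simulated data. Permutations and correlations used Python 3.11.15. Same-numbered samples deviated together before run was removed (24 of 24 pairs with r over 0.1, 0.19 to 0.81), as did other samples of the same run (24 of 24). After run was removed, 9 of 24 same-numbered pairs did so (median r -0.077), beside 5 of 24 other pairs of the same run (median r -0.26). The number was not taken as a pairing in the main fit and was used as a block in an alternative. No pair of samples of 1 day and run was a duplicate (0.475 to 0.871 log2 units, root mean square). Alternatives were no run term, single runs, scalings, pseudocount, filter, background subtraction and leaving out each sample.

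Named probes were the 3 miRNAs, the 3 most alike to each, the 4 most abundant of an immune list and cell type markers. The members and lists were chosen with earlier results of these data known.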

Additional observations from a re-analysis of the deposited data

Results flagged for a closer look

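The day 23 difference of miR-146a-5p from day 14 ran in opposite directions in the 2 runs. In run 2 the day 23 samples (72.9 and 58.2 normalized counts) lay above the day 14 samples (40.6 and 55.3), a log2 difference of 0.45. In run 1 the day 23 samples (30.59 and 20.6) lay below the day 14 samples (30.61 and 34.5), a difference of -0.36, though 1 pair of readings there was nearly equal. Run 2 minus run 1, the difference was 0.81 (SE 0.51, adjusted p = 0.358 by limma), so the test did not separate the runs. The readings lay below the background median in all 4 of these run 1 samples and in 2 of the 4 run 2 samples.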

How the results depend on the processing

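With all samples, no day difference of the 3 miRNAs was called under any alternative except the slope of miR-155-5p as a share of the total (-0.10 per day); the cause was not tested. On that scale its day 23 minus day 14 difference was called in 6 of 16 fits that left out a sample (adjusted p 0.0235 to 0.178). For miR-155-5p the day 23 minus day 14 difference kept its direction in all 10 alternatives (-1.30 to -0.20, adjusted p 0.0520 to 0.832) and with each sample left out (-0.90 to -0.56, adjusted p 0.111 to 0.372). Leaving out a day 17 or day 20 sample cannot move it, as deposited or as a share. Dropping the run term, the replicate block or comparing only the 2 days cannot move it from -0.75 in this balanced design. None of these fits tests its direction. The single runs, -1.30 in run 2 and -0.20 in run 1, average to it. With the replicate number as a block it was -0.75 (limma adjusted p = 0.133), its slope had an adjusted p of 0.173, and the block changed no call. After run was removed, same-numbered pairs had a median r of -0.077, beside -0.26 for other pairs of the same run. With run 1 alone, values turned sign for miR-155-5p in day 17 minus day 14 (0.066), day 20 minus day 14 (0.021) and day 20 minus day 17 (-0.045), for miR-146a-5p in day 23 minus days 14 (-0.36), 17 (-0.26) and 20 (-0.21) and in slope (-0.038), and for miR-342-3p in day 17 minus day 14 (-0.082). With run 2 alone miR-342-3p had 0.089 for day 23 minus day 20. Median scaling, quantile normalization, background subtraction and share of the total turned miR-146a-5p in day 23 minus day 14 to -0.027, -0.074, -0.016 and -0.25 and in slope to -0.0049, -0.012, -0.023 and -0.030, and share turned day 23 minus day 17 to -0.029. Median scaling gave miR-342-3p 0.020 for day 23 minus day 20. Background subtraction, which set 13 of 16 miR-146a-5p and 15 of 16 miR-342-3p values to the floor, gave 0.13 for miR-155-5p in day 20 minus day 14, and for miR-342-3p -0.23 in day 20 and in day 23 minus day 17, -0.0077 in slope and 0.12 between runs. It also gave 1.02 for miR-146a-5p between runs, no longer called, and run differences in slope of -0.046 (miR-146a-5p) and -0.015 (miR-342-3p). Between runs, miR-155-5p was no longer called under median scaling (0.011), quantile normalization (0.21) and share (-0.0084), nor was miR-146a-5p under median scaling (-0.022) and share (-0.024), and these scalings remove most of the shift of all probes. The median run difference of all probes was 0.74 as deposited, -0.04, 0.18, 1.27 and -0.06 under median scaling, quantile normalization, background subtraction and share, and the part of called probes that was higher in run 2 was 79.4%, against 5.36%, 60.6%, 91.7% and 5.56%. Probes called numbered 1 for day 23 minus day 14 and 1 for the slope. By limma both were 0 without the run term (9 and 13 at an unadjusted p under 0.05), with run 2 alone (19 and 28) and with background subtraction (31 and 38), and the first was 0 with only the 2 days compared (42). Run 1 alone called 5, 31 and 40 for days 17, 20 and 23 minus day 14, 1 for day 20 minus day 17, 4 for day 23 minus day 20, 40 for the 4 days and 9 for the slope. Median scaling called 2 slopes and 2 slope differences between runs, quantile normalization 2 for day 23 minus day 14 and 9 slopes, and share 19 slopes. Between runs these called 56, 94 and 54 probes, against 170. With each sample left out, calls ranged from 0 to 10 for day 23 minus day 14 (10 without day 23 replicate 3), 0 to 11 for the slope and 0 to 2 for its difference between runs. With each sample left out, miR-146a-5p ranged from -0.12 to 0.25 for day 23 minus day 14, -0.23 to 0.018 for day 17 minus day 14, -0.16 to 0.12 for day 20 minus day 17, -0.038 to 0.33 for day 23 minus day 17, -0.0063 to 0.36 for day 23 minus day 20 and -0.013 to 0.020 in slope. miR-342-3p ranged from -0.045 to 0.41 for day 17 minus day 14, -0.00087 to 0.38 for day 23 minus day 17 and -0.22 to 0.063 for day 23 minus day 20. Low signal over background limits miR-146a-5p and miR-342-3p, miR-155-5p lay nearer to background in run 1 than in run 2, and 4 samples a day limit all 3.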
